A study of Mus musculus with 2 samples.

Results

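Type 2 conventional dendritic cells (cDC2) were described in 2 single-cell RNA libraries of CD45+ cells sorted from subcutaneous tumours of wild type BALB/c mice. The tumours were grown from MFC, a mouse forestomach carcinoma line. The first library came from mice given thonzonium bromide (TB), a cationic surfactant known to inhibit the proton pump V-ATPase, at 50 mg/kg every other day from day 6 until the mice were sacrificed on day 10. The second came from mice given PBS, with the same wild type background, tumour line and day of sampling. The number, age and sex of the mice behind each library are not given in the sources used here.

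Members were selected on 7 conditions applied to barcodes with at least 200 genes and at most 20% mitochondrial UMIs (unique molecular identifiers, each counting 1 captured RNA molecule). A member had at least 1 UMI of Cd209a, the gene of a DC-SIGN family lectin, and at least 5 UMIs of H2-Ab1, the beta chain of the MHC class II molecule I-A. It had fewer than 10 UMIs summed over the macrophage complement genes C1qa, C1qb and C1qc. It had none of Ccr7, the homing receptor of migratory dendritic cells, none of the B cell gene Cd79a, none of the T cell genes Cd3e and Cd3d, and fewer than 2 of the plasmacytoid gene Siglech. This gave 79 members of 5833 kept cells in the TB library and 63 of 6419 in the PBS library, 142 of 12252 in all. The level of a gene is its UMIs summed over the members of a library, scaled to the total UMIs of those members (counts per 1000000, CPM), with an exact Poisson 95% interval. With 1 library per group there is no replicate and no test, so every value describes these libraries and not the treatment, and every interval covers counting error only.

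Conventional dendritic cells take up antigen in tissues and present it to T cells. The type 2 lineage is known for presenting peptides on MHC class II to CD4 T cells, for its dependence on the growth factor receptor Flt3 and the transcription factor Irf4, and for a wide range of C-type lectins. In inflamed tissue and tumours cDC2 can take on an interferon-induced programme, and they share surface and secreted gene products with monocytes, which makes the 2 lineages hard to tell apart by single genes.

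The TB library held 6724 barcodes with 52973138 UMIs, and the PBS library 7803 barcodes with 46348444 UMIs. Kept cells had a median of 7259 UMIs in the TB library and 4300 in the PBS library. The members themselves were closer in depth, with a median of 13185 UMIs (lowest 3920, highest 40188) in TB members and 12321 (lowest 864, highest 30213) in PBS members. Haemoglobin genes took 0.114% of the UMIs of TB members and 1.51% of those of PBS members, and mitochondrial genes took 3.64% in TB members and 2.90% in PBS members. The libraries shared 14 barcode sequences, none of them among the members.

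The cDC2 label was set against the genes known for the lineage and against 7 other populations taken from the same libraries by gates on known genes. Those were Ccr7 dendritic cells (12 TB and 6 PBS cells), plasmacytoid dendritic cells (39 TB and 109 PBS), type 1 conventional dendritic cells or cDC1 (14 TB and 8 PBS), macrophages (319 TB and 147 PBS), monocytes (1097 TB and 337 PBS), B cells (505 TB and 203 PBS) and T cells (1322 TB and 1440 PBS). Their gates asked for Ccr7 and Fscn1, Siglech, Xcr1 or Clec9a, the C1q genes, Ly6c2 with Vcan or Chil3, Cd79a, and Cd3e or Cd3d. The Ccr7 and cDC1 gates also asked for H2-Ab1. Such a gene is raised in its own population by selection. The levels below describe what each gate selected and are no test of the label. Flt3, the growth factor receptor of dendritic cells, was at 111.5 CPM in TB members and 55.5 CPM in PBS members, against at most 3.83 CPM in monocytes and 2.44 CPM in macrophages of either library. Other dendritic cells had as much or more, with 234 CPM in TB cDC1 and 100.5 CPM in PBS cDC1, 132 CPM (TB) and 223 CPM (PBS) in Ccr7 dendritic cells, and 112 CPM (TB) and 110.3 CPM (PBS) in plasmacytoid cells. Zbtb46, a transcription factor of conventional dendritic cells, was at 43.9 CPM in TB members and 37.5 CPM in PBS members, against at most 1.62 CPM in monocytes. Irf4 was low, at 28.3 CPM in TB members and 23.3 CPM in PBS members, and B cells had 25.9 CPM in the TB library and 29.5 CPM in the PBS library.

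Ciita, the master regulator of MHC class II transcription, was at 404 CPM in TB members and 337 CPM in PBS members, higher than in each of the 7 other populations in both libraries. Next came cDC1, at 385 CPM in the TB library, close to the members, and 226 CPM in the PBS library. Monocytes had 37.1 CPM of Ciita in the TB library and 13.3 CPM in the PBS library. H2-DMb1, a chain of the DM molecule that exchanges peptides on class II, was at 786 CPM in TB members and 939 CPM in PBS members, with cDC1 next at 682 CPM (TB) and 697 CPM (PBS). Ffar2, a receptor for short-chain fatty acids, stood furthest apart of the label's genes. It had 184 CPM in TB members and 134 CPM in PBS members, while the next population, cDC1, had 41.2 CPM from 1 cell in the TB library and 6.28 CPM from 1 cell in the PBS library. Its UMIs came from 36 of 79 TB members and 30 of 63 PBS members, so more than a few cells carried it and many showed none.

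Some genes of the label, Flt3 among them, were not highest in the members. Kmo, an enzyme of the kynurenine path of tryptophan breakdown, was at 195 CPM in TB members and 221 CPM in PBS members, below the plasmacytoid cells at 281 CPM (TB) and 315 CPM (PBS). Clec10a, a galactose-type lectin used to mark cDC2, was at 207 CPM in TB members and 217 CPM in PBS members, and at 224 CPM (TB) and 274 CPM (PBS) in plasmacytoid cells. Genes of other lineages varied from absent to abundant. Xcr1, the chemokine receptor that defines cDC1, had 1 UMI in the TB members and 0 in the PBS members, against 188 CPM in TB cDC1 and 258 CPM in PBS cDC1. Since Xcr1 is part of the cDC1 gate, its level there follows in part from the selection. Of the monocyte markers, Vcan, a proteoglycan gene, had 2 UMIs in each library's members, but the list summed to 10742 CPM in TB members and 12238 CPM in PBS members. Plac8, a small cysteine-rich protein of monocytes and plasmacytoid cells, was at 3582 CPM in TB members and 4171 CPM in PBS members, against 5876 CPM in TB monocytes and 5163 CPM in PBS monocytes. In the PBS library the members had 72.0% of the highest Plac8 level of any compared population, which was not that of the monocytes. Fcgr1, the high-affinity IgG receptor found on monocytes and macrophages, was not absent, at 307 CPM in TB members and 497 CPM in PBS members, against 897 CPM in TB monocytes and 680.5 CPM in PBS monocytes.

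**Figure D1:**
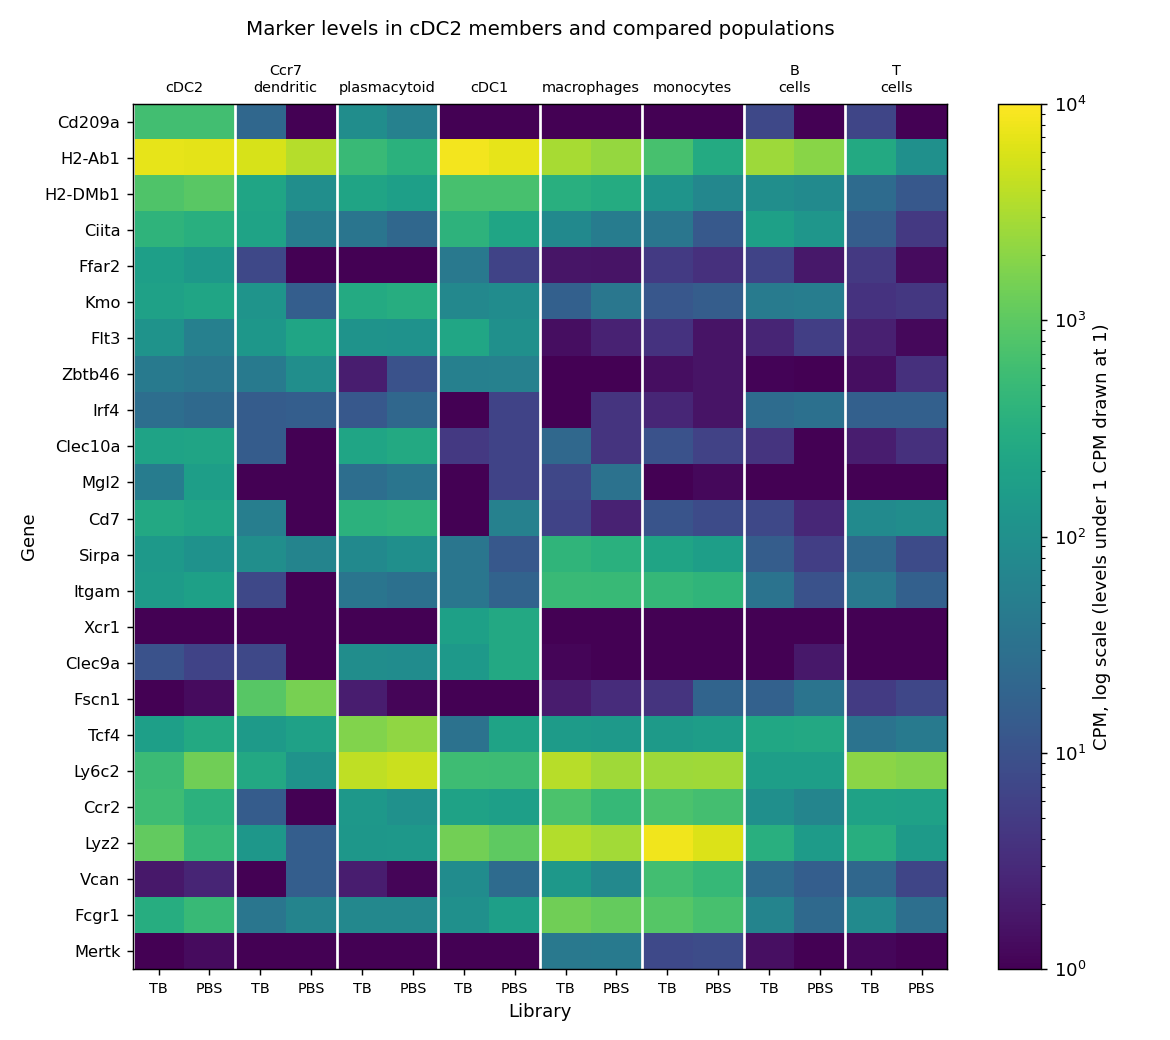
Levels of 24 marker genes (rows) in the cDC2 members and 7 compared populations, with the TB library left of the PBS library in each pair; colour is CPM on a log scale. Ffar2 stands out in the members (184 CPM in TB, 134 CPM in PBS), while Clec10a, Cd7 and Kmo are also high in plasmacytoid cells, and Xcr1, Fscn1 and Vcan are near the bottom of the scale in the members.

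Of 1318 genes compared between populations, 66 were highest in the members in both libraries, with Ffar2, H2-DMb1 and Ciita of the label among them. Rin3, a Rab5 regulator of early endosomes, was at 185.5 CPM in TB members and 189.9 CPM in PBS members, against 55.8 CPM (TB) and 60.7 CPM (PBS) in the next population. Cd300a, an inhibitory receptor for phospholipids, was at 480 CPM in TB members and 366 CPM in PBS members, against 209 CPM in TB monocytes and 161 CPM in PBS macrophages. Both genes were at least 2.27 times the next population in each library. Napsa, an aspartic protease, was at 852 CPM in TB members and 900.3 CPM in PBS members, and Runx1, a transcription factor of blood lineages, at 311 CPM (TB) and 385 CPM (PBS). Cd74, the invariant chain that guides class II through the cell, was the top gene of the list by level, at 14182 CPM in TB members and 13020 CPM in PBS members, but cDC1 were close behind at 14004 CPM (TB) and 12447 CPM (PBS).

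The gate cut through a continuous range of Cd209a. Cd209a reached 39 UMIs in a TB member and 29 in a PBS member, with a median of 5 in each library, and 15 TB and 12 PBS members had exactly 1 UMI. The cells that met each condition except that of Cd209a numbered 466 in the TB library and 232 in the PBS library. Those cells had 2620 CPM of Ly6c2, a surface antigen of classical monocytes, in the TB library and 2022 CPM in the PBS library, and 30.4 CPM (TB) and 32.5 CPM (PBS) of Flt3. TB members with 1 Cd209a UMI had 552 CPM of Ly6c2 and 47.6 CPM of Flt3, while PBS members with 1 Cd209a UMI had 3190 CPM of Ly6c2 and 8.65 CPM of Flt3. TB members with more Cd209a UMIs had 519 CPM of Ly6c2 and 127 CPM of Flt3, and PBS members with more had 1054 CPM of Ly6c2 and 63.8 CPM of Flt3. TB members with 1 Cd209a UMI had less Ly6c2 than the TB cells outside the limit, and PBS members with 1 had more than the PBS cells outside it. The H2-Ab1 limit alone left out 14 TB and 18 PBS cells, beside 79 TB and 63 PBS members, so it weighed more on the PBS library. The Cd3e and Cd3d condition alone left out 16 TB and 9 PBS cells.

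Members made up 1.35% of the kept cells in the TB library (interval 1.07 to 1.69) and 0.982% in the PBS library (0.755 to 1.25). The ratio of these shares was 1.38 (0.979 to 1.95), an interval that includes 1. Without barcodes that held over 10% haemoglobin UMIs the shares were 1.37% in the TB library and 1.05% in the PBS library. Ly6c2 divided the members unevenly between the libraries. Of the members, 30 of 79 in the TB library (37.97%, interval 27.3 to 49.6) and 42 of 63 in the PBS library (66.7%, 53.7 to 78.0) had 3 or more Ly6c2 UMIs, and without them the ratio of shares was 2.57.

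The comparison of TB with PBS members asked which genes of these cells differed in level between the treated and the control library. Genes with at least 100 UMIs over both libraries were compared, leaving out the genes of the gate and mitochondrial, ribosomal protein, haemoglobin, antigen receptor, Xist and Y-linked genes. Of 2646 genes, 107 were at least 1.5-fold higher in TB members, which is 4.04% of those compared, and 158 were at least 1.5-fold lower, which is 5.97%. The median log2 ratio over all of them was -0.01. These shares and this median are the background for each list count given below. With haemoglobin, mitochondrial and ribosomal protein genes taken out of the totals the counts were 136 higher and 124 lower, so the balance of the 2 directions depended on the totals. The genes known for interferon responses, MHC class II presentation and the monocyte-like side of cDC2 did not move as one. The interferon genes were lower in TB members nearly throughout, the class II genes were close to even, and the genes shared with monocytes were split between both directions.

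**Figure D2:**
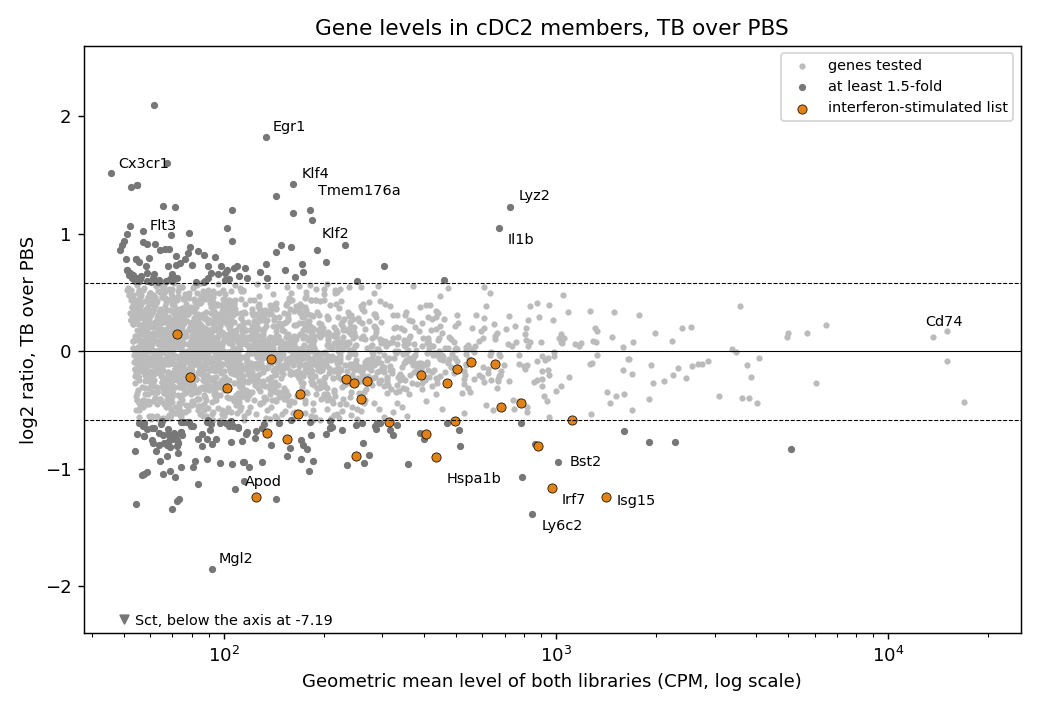
Each point is 1 of 2646 genes in the cDC2 members; the x axis is the geometric mean level of both libraries in CPM (log scale) and the y axis the log2 ratio of TB over PBS, with dashed lines at 1.5-fold. The orange points of the interferon-stimulated list lie below 0 apart from Gbp4, and Sct, at -7.19, is drawn at the lower edge.

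Interferon-stimulated genes, the antiviral and immune set induced by interferon receptors, were lower in TB members in nearly every case. Of its 29 measured members, all compared, 11 were at least 1.5-fold lower in TB members, none was at least 1.5-fold higher, and 28 had a ratio below 1. Of all 2646 genes compared, 5.97% were at least 1.5-fold lower and 1365 had a ratio below 1. The median log2 ratio of the list was -0.44, beside -0.01 over all genes compared, and its summed level was 10206 CPM in TB members and 15526 CPM in PBS members. The list describes these libraries, and its members share their regulators and so are not independent of each other.

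Isg15, a ubiquitin-like protein attached to other proteins in infected cells, lies on chromosome 4 at 156199424 to 156200818 (GRCm38) and was the most abundant gene of the list in PBS members. Per cell it had 0 to 80 UMIs with a median of 5 in TB members, and 0 to 91 with a median of 22 in PBS members. Its level was 916 CPM in TB members and 2169 CPM in PBS members, a ratio of 0.42 (0.39 to 0.46). Nearly every member had some, 70 of 79 in the TB library and 62 of 63 in the PBS library. Thinned to 1000 UMIs per cell, 43.0% of TB members and 72.6% of PBS members kept an Isg15 UMI, and T cells kept one in 39.2% in the TB library and 47.0% in the PBS library.

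Irf7, the transcription factor that amplifies type I interferon responses, was at 650.5 CPM in TB members and 1458 CPM in PBS members, a ratio of 0.45 (0.41 to 0.49). Its median was 5 UMIs per TB member and 12 per PBS member, and its ratio was 0.67 with the same weights given to the subclusters described further on. Ifi44, an interferon-induced antiviral protein, was at 81.3 CPM in TB members and 192.5 CPM in PBS members, with UMIs in 23 of 79 TB and 31 of 63 PBS cells. Its ratio of 0.42 turned to 1.13 without members with 3 or more Ly6c2 UMIs and was 0.78 when members were thinned to 1000 UMIs. Ratios of thinned levels, here and below, rest on few UMIs for genes at low levels and are given without an interval. Ifit3, a member of the family that binds foreign RNA, was at 667 CPM in TB members and 1164 CPM in PBS members, a ratio of 0.57. Ifi205, of the DNA-sensing p200 family, had a ratio of 0.54, and Usp18, the protease that removes Isg15 from its targets, one of 0.62. Over all members each of these genes was lower in the TB library.

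Other interferon genes stayed near even. Ifit1 was at 539 CPM in TB members and 573.5 CPM in PBS members, and Rsad2, the antiviral enzyme viperin, at 633 CPM (TB) and 682 CPM (PBS). Their ratios were 0.94 and 0.93. Gbp4, a guanylate-binding GTPase, was the 1 gene of the list above 1, at 75.8 CPM in TB members and 68.5 CPM in PBS members. Outside the list, Iigp1, an immunity-related GTPase, had a ratio of 0.42 (0.33 to 0.54), from 22 TB and 21 PBS members, with 27.3% of its PBS UMIs in 1 cell, and 0.64 with the same subcluster weights. Isg20, an RNA exonuclease, had a ratio of 0.51, which was 0.79 with the same subcluster weights. Bst2, the tetherin that holds budding virus at the cell surface, was at 733 CPM in TB members and 1411 CPM in PBS members, a ratio of 0.52, which was 0.69 without members with 3 or more Ly6c2 UMIs.

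**Figure D3:**
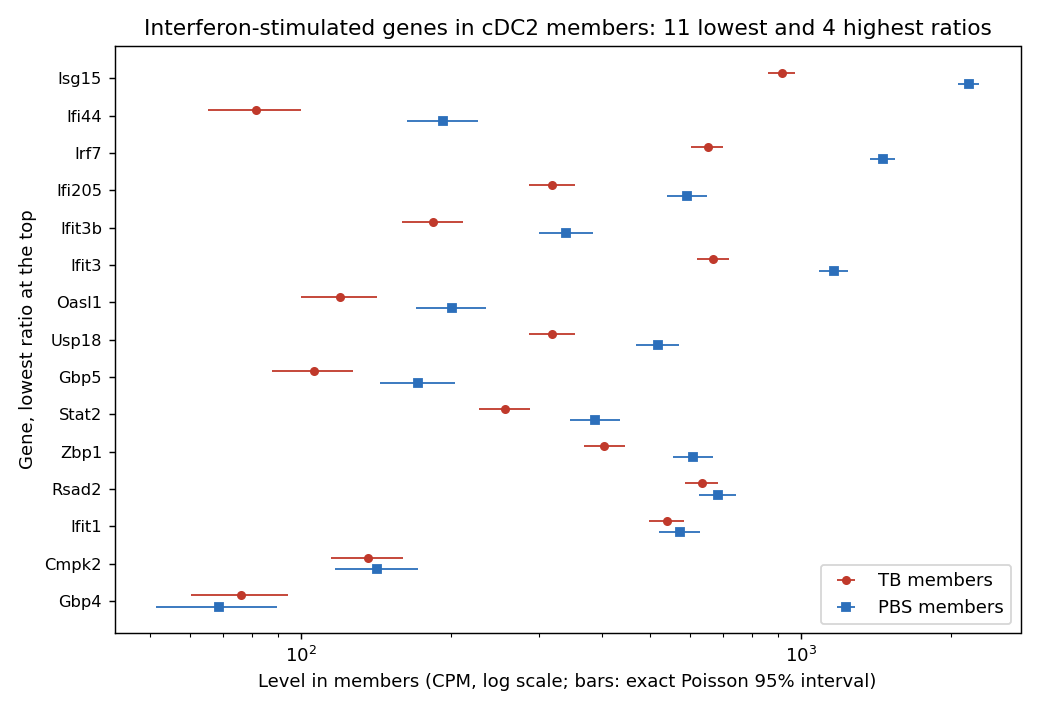
Level in CPM (log scale) of 15 of the 29 interferon-stimulated genes, the 11 at least 1.5-fold lower and the 4 with the highest ratios, in TB members (red circles) and PBS members (blue squares), ordered from the lowest ratio at the top; bars are exact Poisson 95% intervals and cover counting error only. The pairs are far apart for Isg15 (916 CPM in TB, 2169 CPM in PBS) and Irf7 (650.5 CPM in TB, 1458 CPM in PBS), and overlap at the bottom for Ifit1, Cmpk2 and Gbp4.

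Promoters of these genes are shown because both the genes with lower levels in TB members and those near even carry the same sequence element. The element searched was GAAA, any 2 bases, GAAA, on either strand, the core of the interferon-stimulated response element bound by IRF and STAT factors. Windows come from RefSeq promoters of GRCm38.p6 and are written in the direction of the gene, with the element, or its reverse complement, in capitals. Distances are those of the first base of the element from the start site.
Isg15: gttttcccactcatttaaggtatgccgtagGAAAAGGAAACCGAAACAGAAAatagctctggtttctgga
Ifi205: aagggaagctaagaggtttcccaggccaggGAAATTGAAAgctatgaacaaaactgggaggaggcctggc
Gbp5: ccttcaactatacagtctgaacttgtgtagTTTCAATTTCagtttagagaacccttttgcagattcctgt
Ifit1: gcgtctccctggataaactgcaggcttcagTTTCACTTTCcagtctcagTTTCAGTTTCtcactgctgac
Rsad2: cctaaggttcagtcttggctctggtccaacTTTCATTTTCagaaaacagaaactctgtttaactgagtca
Gbp2: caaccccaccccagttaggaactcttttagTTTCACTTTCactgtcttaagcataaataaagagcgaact

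The Isg15 window lies on the minus strand at chr4:156200857-156200926, with its first element at -78, and its capitals join 3 overlapping matches. That of Ifi205 lies on the minus strand at chr1:174031850-174031919, with the first of 2 elements at -134 and the second, outside this window, at 24. That of Gbp5 lies on the plus strand at chr3:142496739-142496808, with the element at -165. These 3 genes were at least 1.5-fold lower in TB members, with ratios of 0.42, 0.54 and 0.62. The Ifit1 window lies on the plus strand at chr19:34640755-34640824, with the first of 2 elements at -104. That of Rsad2 lies on the minus strand at chr12:26456533-26456602, with the element at -120, and that of Gbp2 on the plus strand at chr3:142620574-142620643, with the element at -59. The ratios of these 3 genes were 0.94, 0.93 and 0.84.

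The element was found in the 300-base promoter of 15 of the 23 interferon genes matched to a RefSeq promoter (65.2%), against 3.99% of all 27025 promoters and 6.63% of the 2143 compared genes that were matched. Within the list it was as frequent among genes past the 1.5-fold limit, 6 of 9, as among the others, 9 of 14. Among all genes at least 1.5-fold lower in TB members it was found in 24 of 132 (18.2%), and in 18 of 123 (14.6%) after the interferon list was taken out. Among genes at least 1.5-fold higher it was found in 5 of 87 (5.75%). A match describes the letters of the promoter and does not show a bound site.

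Interferon gene content varied widely from cell to cell within each library. The 29 genes took 0.0594% to 6.00% of the UMIs of a TB member, with a median of 0.634%, and 0.233% to 5.02% of the UMIs of a PBS member, with a median of 1.41%. The libraries overlapped over nearly the whole range, and the TB library held the single highest cell. The lower and upper quartiles were 0.340% and 1.39% in the TB library and 0.609% and 2.37% in the PBS library.

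Ly6c2, a GPI-anchored antigen of classical monocytes that interferon is also known to induce, lies on chromosome 15 at 75108158 to 75111970 (GRCm38). It had the lowest ratio among the 12 lowest genes taken by the rule for named genes, which asks for at least 200 UMIs. Its median was 2 UMIs per TB member and 8 per PBS member, with a highest value of 81 in TB members and 96 in PBS members. Its level was 525 CPM in TB members and 1373 CPM in PBS members, a ratio of 0.38 (0.35 to 0.42). Monocytes, whose gate asks for Ly6c2, had 2575 CPM (TB) and 2714 CPM (PBS), and T cells 2026 CPM (TB) and 1796 CPM (PBS). In the PBS library the members had 28.6% of the highest level of any compared population. That population was neither the monocytes nor the T cells, so Ly6c2 does not mark monocytes alone in these libraries. The interferon list was read on either side of that limit. Among members with 3 or more Ly6c2 UMIs the summed interferon level was 10640 CPM in the TB library and 16975 CPM in the PBS library, and among those with 0 to 2 it was 9891 CPM (TB) and 12080 CPM (PBS). Both strata were lower in TB members, and the median log2 ratio of the list was -0.23 in the members with 0 to 2.

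**Figure D4:**
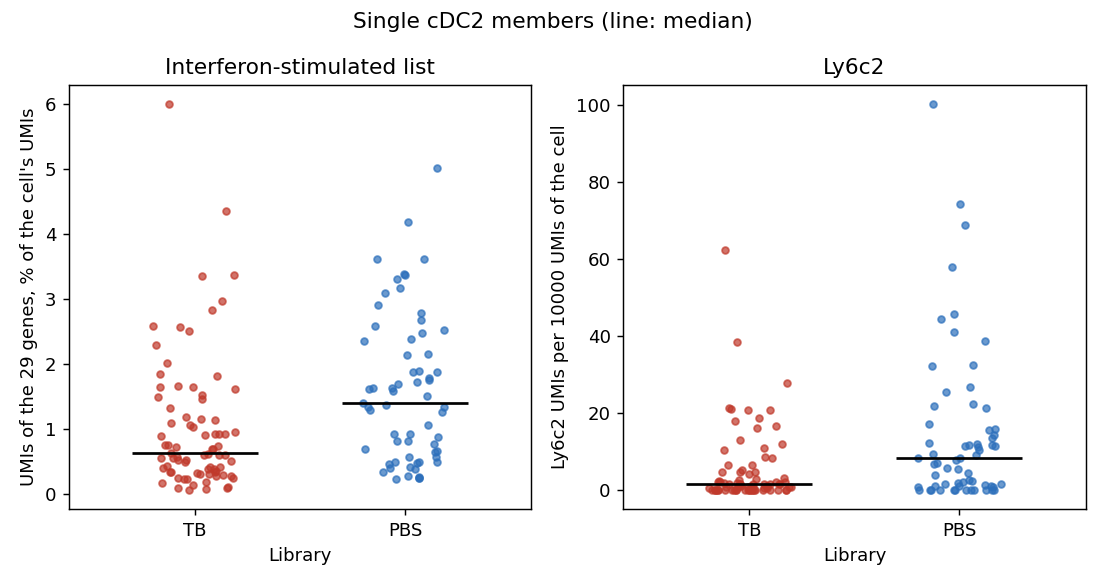
Each point is 1 cDC2 member (79 in TB, 63 in PBS) and the line is the median; the left panel shows the interferon-stimulated list as a percentage of the cell's UMIs and the right panel Ly6c2 UMIs scaled to the cell's total UMIs. The libraries overlap in both panels, and the median interferon share is 0.634% in TB members and 1.41% in PBS members.

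The same list was read in the other populations. Its median log2 ratio of TB over PBS was 0.21 in macrophages and 0.15 in monocytes, where 7 and 5 of 29 genes were below 1. It was 0.12 in B cells and -0.05 in T cells, with 6 and 15 of 29 genes below 1, and 0.04 in plasmacytoid cells over the 20 genes with enough UMIs. Isg15 was at 2217 CPM in TB monocytes and 2273 CPM in PBS monocytes, and at 2677 CPM (TB) and 2922 CPM (PBS) in macrophages. The members were the population whose list lay furthest below even among the 6 with 20 or more of its genes compared. With 1 library per group, the difference between populations has no test.

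Leiden clustering of the 142 members from both libraries gave 4 subclusters, described by the genes that led them, which are no findings since the clustering used them. Subcluster 1 (19 TB and 33 PBS cells) was led by Sct and interferon-induced genes such as Cxcl9, Cxcl10, Rsad2 and Ifit3. Of the 4 it also had the most Tcf4 and Bst2, genes of the plasmacytoid list. Tcf4 was at 304.6 CPM (TB) and 372 CPM (PBS) there, and Bst2 at 1062 CPM (TB) and 1800 CPM (PBS). Over all PBS members Tcf4 was at 12.7% of the highest compared population. Whether subcluster 1 holds plasmacytoid cells was not tested. Subcluster 2 (30 TB and 14 PBS cells) was led by Lyz2, Cx3cr1 and Ccl3, genes known from monocytes and macrophages, and also by Flt3. Subcluster 3 (26 TB and 14 PBS cells) was led by Mgl2, Ffar2 and Cd72 and by the class II genes H2-Oa and H2-DMb2. Subcluster 4 (4 TB and 2 PBS cells) was led by Ctla2a, Gzmc, Nkg7 and Gzma, genes of natural killer (NK) cells.

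Within subclusters the interferon list differed less between libraries than over all members. In subcluster 1 it summed to 22349 CPM in TB cells and 22542 CPM in PBS cells, a ratio of 0.99 (0.96 to 1.03). In subcluster 2 it was 5162 CPM (TB) and 6256 CPM (PBS), a ratio of 0.83, and in subcluster 3 8202 CPM (TB) and 9724 CPM (PBS), a ratio of 0.84. With the same subcluster weights in both libraries the median log2 ratio of the list was -0.06, close to even. Since interferon genes helped to form the subclusters, this does not separate a change in how many cells carry the programme from a change within cells.

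Single genes of the list still differed inside subclusters. Isg15 in subcluster 1 was at 2105 CPM in TB cells and 3227 CPM in PBS cells, and in subcluster 3 at 758 CPM (TB) and 1602 CPM (PBS), with intervals that do not overlap in either. In subcluster 2 it was at 348 CPM (TB) and 484 CPM (PBS), where the intervals of 290 to 415 CPM (TB) and 381 to 605 CPM (PBS) overlap. Ly6c2 was at 1062 CPM in TB cells and 2039 CPM in PBS cells of subcluster 1, at 326 CPM (TB) and 630 CPM (PBS) in subcluster 2, and at 478 CPM (TB) and 786 CPM (PBS) in subcluster 3. Its level was lower in TB cells in each of these 3.

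**Figure D5:**
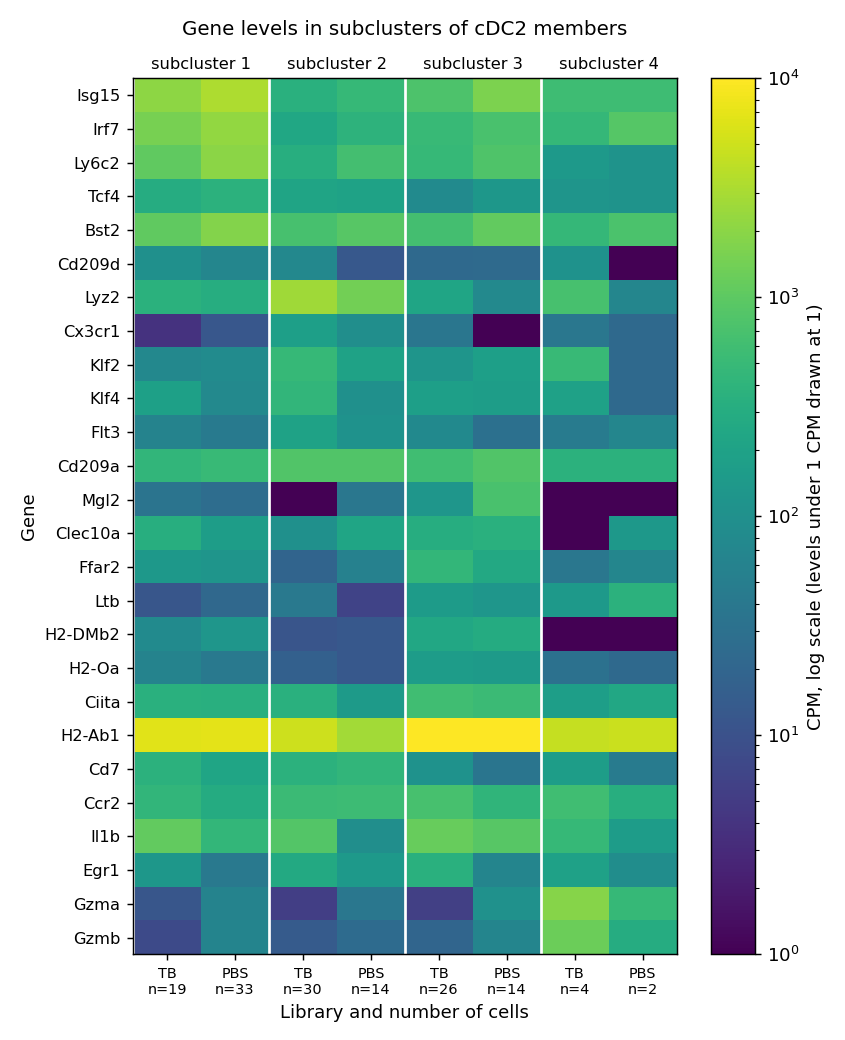
Levels of 26 genes (rows) in the 4 subclusters of cDC2 members, with the TB library left of the PBS library and the number of cells under each column; colour is CPM on a log scale. Isg15 and Irf7 are highest in subcluster 1, Lyz2 and Cx3cr1 in subcluster 2, Mgl2 and Ffar2 in subcluster 3, and Gzma and Gzmb in subcluster 4, which holds 4 TB and 2 PBS cells.

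MHC class II presentation, the defining function of these cells, was close to even between the libraries. Of 14 measured genes of the list 10 were compared, none reached 1.5-fold in either direction, and the median log2 ratio was 0.05. H2-Aa, the alpha chain of I-A, was at 7007 CPM in TB members and 6000 CPM in PBS members, a ratio of 1.17 (1.13 to 1.21). H2-Eb1, the beta chain of I-E, was at 5188 CPM (TB) and 4764 CPM (PBS), and Cd74 had a ratio of 1.09. Ctss, the protease that trims the invariant chain, was at 1854 CPM in TB members and 2010 CPM in PBS members. H2-Oa and H2-DMb2, modulators of peptide exchange, had ratios of 1.31 and 0.77 with intervals that include 1.

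MHC class I presentation genes were mostly slightly lower in TB members. Of 16 genes compared, 14 had a ratio below 1, 2 were at least 1.5-fold lower and none at least 1.5-fold higher, with a median log2 ratio of -0.20. The 2 were the nonclassical class I genes H2-T22, at 180 CPM in TB members and 285.5 CPM in PBS members, and H2-Q7, at 211 CPM (TB) and 323 CPM (PBS). Both belong to a multigene family whose reads can be split between near-identical copies, so their levels are uncertain. Without members with 3 or more Ly6c2 UMIs the ratio of H2-T22 was 0.96 and that of H2-Q7 0.94, neither past 1.5-fold, while thinned to 1000 UMIs H2-Q7 was at 0.29. B2m, the shared light chain, was at 2797 CPM in TB members and 2957 CPM in PBS members, and the peptide transporter genes Tap1 and Tap2 were at ratios of 1.07 and 1.11.

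Costimulatory and inhibitory ligands showed 1 gene past 1.5-fold among 7 compared, with a median log2 ratio of -0.35. Lgals9, the galectin ligand of Tim-3, was at 132 CPM in TB members and 222 CPM in PBS members, a ratio of 0.59 (0.47 to 0.74), which was 0.79 with the same subcluster weights. Cd86, a B7 ligand of CD28, was at 226 CPM in TB members and 288 CPM in PBS members, and Icosl, the ligand of ICOS, at 79.5 CPM (TB) and 119 CPM (PBS). Cd274, the gene of PD-L1, was at 81.3 CPM (TB) and 63.3 CPM (PBS), with an interval of the ratio that includes 1. The median turned to 0.19 with the same subcluster weights in both libraries, so its direction was not the same under that weighting.

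Of 13 genes of cDC2 identity compared, Flt3 and Cd209d were at least 1.5-fold higher in TB members and Mgl2 lower, with a median log2 ratio of 0.26. Cd209d, a lectin of the DC-SIGN family, had a ratio of 1.54, which turned to 0.94 when members were thinned to 1000 UMIs. Flt3 lies on chromosome 5 at 147330741 to 147400489 (GRCm38). It had 0 to 11 UMIs per TB member and 0 to 5 per PBS member, with UMIs in 44 of 79 TB and 24 of 63 PBS cells. Its level was 111.5 CPM in TB members and 55.5 CPM in PBS members, a ratio of 2.01 (1.41 to 2.91). Thinned to 1000 UMIs, 15.2% of TB members (8.10 to 25.03) and 4.84% of PBS members (1.01 to 13.5) kept a Flt3 UMI, against 0.0757% of TB and 0.141% of PBS T cells, a population that lacks the gene. The thinned intervals of the members overlap, and the ratio of thinned levels was 3.40. Flt3 was at 201 CPM in TB cells and 108 CPM in PBS cells of subcluster 2, and at 80.1 CPM (TB) and 29.8 CPM (PBS) in subcluster 3.

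Of 13 dendritic cell transcription factors compared, 3 were at least 1.5-fold higher in TB members and none lower. The shares over all genes compared were 4.04% higher and 5.97% lower, and the median log2 ratio of this list was 0.21. Klf4, a zinc finger factor needed by part of the cDC2 lineage, was at 264 CPM in TB members and 98.2 CPM in PBS members, a ratio of 2.69 (2.08 to 3.51). Without members with 3 or more Ly6c2 UMIs its ratio was 1.28. Bcl6, a transcriptional repressor, was at 97.8 CPM in TB members and 49.1 CPM in PBS members, with UMIs in 48 of 79 TB and 21 of 63 PBS cells. Nr4a1, a nuclear receptor induced by activation, had a ratio of 1.80. Spi1, the factor PU.1 of the myeloid lineage, was at 604 CPM (TB) and 570 CPM (PBS), and Irf8, the factor that cDC1 need, at 208 CPM in TB members and 149.8 CPM in PBS members. The ratio of Irf8, 1.39, was 0.84 without subcluster 4, which was led by genes of natural killer cells.

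The genes that divide cDC2 into subsets went in both directions. Of 13 compared, 5 were at least 1.5-fold higher in TB members and 3 lower, against 4.04% and 5.97% over all genes compared. The median log2 ratio of these 13 was 0.45. Lyz2, the lysozyme of myeloid cells, had 0 to 227 UMIs per TB member with a median of 3, and 0 to 58 per PBS member with a median of 1. Its level was 1110 CPM in TB members and 474 CPM in PBS members, a ratio of 2.34 (2.08 to 2.64). T cells, which should lack Lyz2, had 326 CPM in the TB library and 151 CPM in the PBS library, and the share of the members' difference that free RNA of other cells could make up was not tested. Cx3cr1, the fractalkine receptor, was at 77.7 CPM in TB members and 27.1 CPM in PBS members, from 31 of 79 TB and 11 of 63 PBS cells. Tmem176a and Tmem176b, neighbouring genes of ion channel-like membrane proteins known from cDC2, were at ratios of 2.30 and 1.87, which were 3.66 and 2.88 when members were thinned to 1000 UMIs. Both were also higher in TB T cells, with Tmem176a at 40.4 CPM (TB) and 15.98 CPM (PBS). Tmem176b was at 47.2 CPM (TB) and 18.8 CPM (PBS) there, and the part of free RNA was not tested for either.

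Mgl2, a galactose-type lectin of a cDC2 subset, was at 48.4 CPM in TB members and 174 CPM in PBS members, a ratio of 0.28 (0.20 to 0.38). It was found in few cells, 12 of 79 TB members and 11 of 63 PBS members, and 1 PBS cell held 45.2% of the PBS UMIs. Its ratio lay between 0.065 and 0.49 over the alternatives. Ms4a4c, a tetraspan protein that interferon is known to induce in monocytes, was at 1267 CPM in TB members and 2028 CPM in PBS members, a ratio of 0.62, which was 0.81 with the same subcluster weights. Cd7 and Klrb1b, lymphoid-type receptors found on some cDC2, did not pass 1.5-fold. Cd7 was at 264 CPM (TB) and 214 CPM (PBS), and Klrb1b at 135 CPM (TB) and 93.0 CPM (PBS).

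Among C-type lectins and phagocytic receptors, 5 of 10 genes compared were at least 1.5-fold higher in TB members and 2 lower. Over all genes compared the shares were 4.04% higher and 5.97% lower, and the median log2 ratio of this list was 0.59. Clec4a1, of the DCIR family, was at 146 CPM in TB members and 76.2 CPM in PBS members, a ratio of 1.92 (1.42 to 2.63), which was 3.66 when members were thinned to 1000 UMIs. Its relative Clec4a2 had a ratio of 1.72 and Fcgr2b, the inhibitory IgG receptor, one of 1.79, which was 1.41 with the same subcluster weights and 3.92 when thinned. Fcgr1 went the other way, with a ratio of 0.62 (0.53 to 0.72), which was 0.88 when members were thinned to 1000 UMIs, and it is also known to be induced by interferon. Cd300c2, an activating receptor of the Cd300 family, was at 243 CPM in TB members and 107 CPM in PBS members, with UMIs in 65 of 79 TB and 29 of 63 PBS cells. The same list was also higher in the TB library in lymphocytes, which should lack most of these genes, with 13 of 15 genes compared at least 1.5-fold higher in T cells (median log2 ratio 1.17) and 5 of 7 in B cells (0.85). T cells had 35.95 CPM (TB) and 11.7 CPM (PBS) of Clec4a1, 31.4 CPM (TB) and 9.44 CPM (PBS) of Fcgr2b, and 29.7 CPM (TB) and 9.25 CPM (PBS) of Cd300c2. In monocytes the median was 0.38 and in macrophages 0.13. The part of free RNA of other cells in the members' difference was not tested.

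Receptors for chemokines and growth factors were higher in TB members wherever they passed 1.5-fold. Of 8 chemoattractant receptors compared, 3 did so, against 4.04% higher and 5.97% lower over all genes compared. Cx3cr1 is given above. Cxcr4, the receptor for Cxcl12, was at 100.5 CPM in TB members and 58.1 CPM in PBS members, and Ccr2, the receptor that draws monocytes and their progeny to tissue, at 566 CPM (TB) and 372 CPM (PBS). The ratio of Ccr2, 1.52, was 1.28 when members were thinned to 1000 UMIs. Csf1r, the receptor for the macrophage growth factor, was at 141 CPM in TB members and 85.3 CPM in PBS members. T cells had 27.2 CPM (TB) and 10.0 CPM (PBS) of Csf1r, and the part of free RNA was not tested. The ratios of Cxcr4 and Csf1r, 1.73 and 1.65, were 1.40 and 1.37 in members with 2 or more Cd209a UMIs. The interferon receptor genes Ifnar1, Ifnar2, Ifngr1 and Ifngr2 had ratios of 1.05, 1.11, 1.47 and 0.92, none past 1.5-fold.

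Il1b, the inflammatory cytokine interleukin 1 beta, lies on chromosome 2 at 129364570 to 129371139 (GRCm38) and was the most abundant cytokine of the members. It had 0 to 92 UMIs per TB member with a median of 7, and 0 to 90 per PBS member with a median of 1. Its level was 967.5 CPM in TB members and 466 CPM in PBS members, a ratio of 2.08 (1.84 to 2.35), with UMIs in 62 of 79 TB and 35 of 63 PBS cells. Of the PBS UMIs 24.9% came from 1 cell. The ratio was 9.22 without members with 3 or more Ly6c2 UMIs and 1.64 when members were thinned to 1000 UMIs. Monocytes had 1154 CPM in the TB library and 808.5 CPM in the PBS library, and T cells 117 CPM (TB) and 62.3 CPM (PBS). Both were thus also higher in the TB library, and the part of free RNA in the members' difference was not tested. In subcluster 1 Il1b was at 1090 CPM in TB cells and 451 CPM in PBS cells, in subcluster 2 at 844 CPM (TB) and 95.5 CPM (PBS), and in subcluster 3 at 1188 CPM (TB) and 929 CPM (PBS), so the TB level was the higher in each.

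Other cytokine genes compared were few. Il1r2, the decoy receptor for interleukin 1, was at 134 CPM in TB members and 256 CPM in PBS members, a ratio of 0.53 (0.42 to 0.65), which came to 0.95 without members with 3 or more Ly6c2 UMIs. Osm, an interleukin 6 family cytokine, had a ratio of 0.49, but 46.0% of its PBS UMIs came from 1 cell and its direction turned in 2 alternatives. Tgfb1 was at 208 CPM in TB members and 187 CPM in PBS members. The T cell polarising genes Il12b and Il12a had no UMI in any member. A count of 0 allows up to 3 UMIs, and Il23a and Il10 had 1 UMI each, both in PBS members.

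Chemokines gave 1 of 7 compared genes in each direction, Ccl5 higher and Cxcl9 lower. Ccl5, a ligand made by T cells and mature dendritic cells, was at 108 CPM in TB members and 58.1 CPM in PBS members, but 48.3% of its TB UMIs came from 1 cell and its ratio of 1.86 was 1.00 without subcluster 4. Cxcl10, a ligand of Cxcr3 on T cells, was the most abundant, at 1414 CPM in TB members and 1823 CPM in PBS members, a ratio of 0.78 (0.72 to 0.83). Its UMIs came from 34 of 79 TB members and 39 of 63 PBS members. Cxcl9, a second Cxcr3 ligand, was at 43.9 CPM in TB members and 111 CPM in PBS members, but 85.4% of its TB UMIs and 65.1% of its PBS UMIs lay in 1 cell each, and its ratio of 0.39 was 0.85 with the same subcluster weights and 0.013 without members with 3 or more Ly6c2 UMIs. Ccl4, an inflammatory chemokine, was at 700 CPM in TB members and 629 CPM in PBS members. Ccl22, the chemokine of mature dendritic cells, had at most 2 UMIs in a library's members.

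Immediate early genes, switched on within minutes of stimulation or of cell handling, gave 5 higher and 1 lower among 16 compared. Beside these stand 4.04% higher and 5.97% lower over all genes compared. The list's median log2 ratio was 0.18. Egr1, a zinc finger factor, had 0 to 43 UMIs per TB member with a median of 1, and 0 to 7 per PBS member with a median of 0. Its level was 252 CPM in TB members and 71.0 CPM in PBS members, a ratio of 3.55 (2.65 to 4.83), which was 2.35 when members were thinned to 1000 UMIs, with UMIs in 45 of 79 TB and 20 of 63 PBS cells. Macrophages had 202 CPM in the TB library and 208 CPM in the PBS library, and monocytes 183 CPM (TB) and 204 CPM (PBS). Klf2, a quiescence-linked zinc finger factor, was at 272 CPM in TB members and 125 CPM in PBS members, a ratio of 2.17, which was 1.34 without members with 3 or more Ly6c2 UMIs. Fosb, a subunit of AP-1, went the other way, at 168 CPM (TB) and 328 CPM (PBS), which was not past 1.5-fold without members with 3 or more Ly6c2 UMIs (0.83), and Jun, its partner, was at 1429 CPM (TB) and 2016 CPM (PBS).

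Heat shock chaperones gave 4 lower and none higher among 11 compared, against 5.97% lower and 4.04% higher over all genes compared. Their median log2 ratio was -0.38. Hspa1b, an inducible Hsp70, was at 546 CPM in TB members and 1148 CPM in PBS members, a ratio of 0.48 (0.43 to 0.53), and its near-identical neighbour Hspa1a at 660 CPM (TB) and 1137 CPM (PBS), so reads of the pair can be split between them. Dnajb1, an Hsp40 partner, had a ratio of 0.41 and Hsph1, an Hsp110, one of 0.64. The constitutive Hspa8 was at 2727 CPM in TB members and 2366 CPM in PBS members. The median of the list was 0.01 when members were thinned to 1000 UMIs. T cells had 168 CPM of Hspa1b in the TB library and 362 CPM in the PBS library, and the median log2 ratio of the list was -0.41 in T cells, -0.39 in monocytes and -0.87 in B cells. It was -0.32 in plasmacytoid cells and -0.11 in macrophages, while cDC1 went the other way, with a median of 0.47 and 3 of 9 genes at least 1.5-fold higher.

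V-ATPase subunits, the pump that thonzonium bromide is known to inhibit, gave 1 higher and none lower among 13 compared, with a median log2 ratio of 0.13. Over all genes compared 4.04% were higher and 5.97% lower. The V-ATPase median was 0.16 in macrophages, 0.14 in monocytes, 0.14 in T cells and 0.09 in B cells. It was -0.04 in plasmacytoid cells and, over 3 genes, 0.29 in cDC1. Atp6v1a, the catalytic subunit, was at 95.01 CPM in TB members and 54.3 CPM in PBS members, a ratio of 1.75 (1.21 to 2.57). Atp6v0c, the proton-carrying ring subunit and the most abundant of the list, was at 533 CPM (TB) and 460 CPM (PBS). Lysosomal genes gave 1 higher and none lower among 14, with a median log2 ratio of 0.21. Hexa, a subunit of lysosomal hexosaminidase, was the 1 gene (ratio 1.62, and 1.46 thinned to 1000 UMIs), at 130 CPM in TB members and 80.1 CPM in PBS members, and Psap, the precursor of the saposins, was at 1243 CPM (TB) and 890 CPM (PBS). Npc2, a carrier of cholesterol in the lysosome, was at 693 CPM (TB) and 962 CPM (PBS), a ratio of 0.72. The lysosomal median was 0.17 in macrophages, 0.19 in monocytes, 0.39 in T cells, 0.09 in B cells and -0.12 in plasmacytoid cells. Over 5 genes each it was 0.21 in cDC1 and -0.54 in Ccr7 dendritic cells.

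Sterol genes gave 2 lower and none higher among 7 compared. Hmgcs1, an enzyme of cholesterol synthesis, was at 50.3 CPM in TB members and 86.5 CPM in PBS members, a ratio of 0.58 (0.40 to 0.84). Its ratio was 0.94 without members with 3 or more Ly6c2 UMIs. When members were thinned to 1000 UMIs it was 3.14, but few UMIs of a gene at this level remain, so the thinned direction is uncertain. No glycolysis gene of 13 compared passed 1.5-fold, and Gapdh was at 900 CPM in TB members and 949 CPM in PBS members. NF-kappaB response genes gave 1 of 12 in each direction, with Birc3, an inhibitor of apoptosis, at a ratio of 1.89 and the Bcl2 family gene Bcl2a1b at 0.62. Without members with 3 or more Ly6c2 UMIs the ratio of Birc3 was 1.09 and that of Bcl2a1b turned to 1.87, and Bcl2a1b was also at 1.14 in members with 2 or more Cd209a UMIs. Thinned to 1000 UMIs, Birc3 was at 5.49, a ratio that rests on few UMIs.

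Integrins and adhesion genes gave 1 in each direction among 10 compared. Itgal, the alpha chain of LFA-1, was at 109 CPM in TB members and 46.5 CPM in PBS members, a ratio of 2.34 (1.598 to 3.496), from 37 of 79 TB and 15 of 63 PBS cells. Its ratio was 3.98 without members with 3 or more Ly6c2 UMIs. Itgax and Itgam, the chains of CD11c and CD11b used to sort dendritic cells, did not pass 1.5-fold. Itgax was at 137 CPM (TB) and 116 CPM (PBS), and Itgam at 156 CPM (TB) and 187 CPM (PBS). Among cytoskeletal genes Marcks, a membrane-bound regulator of actin, was the 1 of 15 past it, at 265 CPM in TB members and 156 CPM in PBS members, a ratio of 1.70, which was 1.26 without members with 3 or more Ly6c2 UMIs. Marcks was also higher in TB T cells, at 68.7 CPM (TB) and 27.3 CPM (PBS).

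Among the remaining genes with the highest and lowest ratios were several of other functions. Pou2f2, the factor Oct-2, was at 147 CPM in TB members and 71.0 CPM in PBS members, a ratio of 2.07 (1.52 to 2.87). Gngt2, a G protein gamma subunit, and Adgre5, the adhesion receptor CD97, had ratios of 1.87 and 1.85, of which that of Adgre5 was 1.40 when members were thinned to 1000 UMIs. Apod, a lipid-binding lipocalin, was at 72.2 CPM in TB members and 163 CPM in PBS members, a ratio of 0.44, which was 0.74 with the same subcluster weights. Xdh, xanthine dehydrogenase, was at 78.6 CPM in TB members and 169 CPM in PBS members, found in 44 of 79 TB and 43 of 63 PBS cells, and its ratio of 0.46 was 0.31 without members with 3 or more Ly6c2 UMIs, where that of Gngt2 was 2.96. Cnp, a cyclic nucleotide phosphodiesterase, had a ratio of 0.51, which was 0.79 without members with 3 or more Ly6c2 UMIs. Outside the rule, and chosen after its values were seen, Sct, the hormone secretin, had 1 UMI in the TB members and 103 UMIs in 10 PBS members, a ratio of 0.0069 (0.00017 to 0.039).

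Pattern recognition receptors, which sense microbial and self nucleic acids, had 4 genes with enough UMIs, all below 1 and none past 1.5-fold. Ifih1, the RNA sensor MDA5, was at 230 CPM in TB members and 307 CPM in PBS members, a ratio of 0.75 (0.62 to 0.90). The genes of antigen uptake and iron handling had 7 of 9 below 1 and none past 1.5-fold, with Fth1, the ferritin heavy chain, at 3599 CPM in TB members and 3895 CPM in PBS members. Of cell cycle genes 3 of 20 measured had enough UMIs, and Tubb5, a tubulin, was the 1 past 1.5-fold, with a ratio of 1.81.

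Granzyme transcripts, known from NK cells, were found in members of both libraries. Gzma, a granzyme of cytotoxic lymphocytes, was at 227 CPM in TB members and 90.4 CPM in PBS members, a ratio of 2.51. The 4 TB cells of subcluster 4 held 241 of the 248 TB UMIs, and its 2 PBS cells held 21 of the 70 PBS UMIs. Gzma UMIs were found in 11 of 79 TB members and 32 of 63 PBS members, and Gzmc, a further granzyme, in 15 of 79 TB members and 36 of 63 PBS members. Without subcluster 4 the ratio of Gzma was 0.11 and that of Gzmb, granzyme B, 0.26, so both directions turned. The 6 cells of subcluster 4 had a median of 33024 UMIs in the TB library and 21738 in the PBS library, above the medians over all members of 13185 in the TB library and 12321 in the PBS library, and whether their barcodes hold 2 cells was not tested.

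Markers of B, T and tumour cells were low, which the gate fixes in part, since it sets Cd79a of the B cell list and Cd3e and Cd3d of the T cell list to 0. Summed over 8 genes each, B cell markers were at 9.14 CPM in TB members and 9.04 CPM in PBS members, T cell markers at 25.6 CPM (TB) and 21.96 CPM (PBS), and tumour and stroma markers at 46.6 CPM (TB) and 41.3 CPM (PBS), with Cdh1 giving 44.8 CPM (TB) and 34.9 CPM (PBS) of the last. Neutrophil markers summed to 118 CPM in TB members and 33.6 CPM in PBS members over 10 genes, and NK cell markers to 778 CPM in TB members and 504 CPM in PBS members over 8. Plasmacytoid markers, with Siglech limited by the gate, summed to 969 CPM in TB members and 1754 CPM in PBS members over 10 genes. Bst2 gave 733 CPM (TB) and 1411 CPM (PBS) of that sum. Tcf4 gave 183 CPM (TB) and 271 CPM (PBS), a ratio of 0.67 that did not pass 1.5-fold. Erythroid markers, mostly haemoglobin, summed to 1143 CPM in TB members and 15113 CPM in PBS members. With haemoglobin genes taken out of the totals, 95 genes were at least 1.5-fold higher and 179 lower in TB members.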

How the data were processed

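Single-cell libraries were made from CD45+ tumour cells with a 10x Single Cell 3' kit, per the labels' protocols. The deposited matrices hold UMI counts per gene and barcode, which the authors made with Cell Ranger 6.1.2, per the file headers. Seurat 3.0, R 3.5.3 and mouse build mm10 are listed too, per the submitters' processing notes. The members, gene lists and rules were chosen with earlier results of these data known.

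A barcode needed 200 genes or more and no more than 20% mitochondrial UMIs, and members were taken by the conditions given in the report. UMI counts were summed over members and scaled to CPM. Levels carry exact Poisson 95% intervals, ratios exact conditional binomial ones and shares exact Clopper-Pearson ones, all covering counting error only. With 1 library per group no test was run. No cell was removed as a doublet and no doublet caller was run; an alternative leaves out the 10% of members with the most UMIs. Shares of cells with a UMI were also taken after thinning each cell to 1000 UMIs, which left out 1 PBS member.

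Named genes were the 12 highest and 12 lowest ratios among genes with at least 200 UMIs, 50 CPM in a library, an interval without 1, and a level of 25% or more of the top compared population. Each list added its most abundant gene and up to 2 genes from either end of its ratios, and all markers were added. Other genes named were chosen after their values were seen. Members were clustered with Leiden (1000 variable genes, 15 components, 15 neighbours, resolution 0.5). Alternatives changed the gate, totals, count minimum, depth and subcluster weights. Gene positions come from GENCODE on GRCm38, and promoters from RefSeq on GRCm38.p6. Python 3.11.15, numpy 2.4.6, scipy 1.17.1, scanpy 1.11.5, leidenalg 0.10.2 and matplotlib 3.10.9 were used, and the ratio code was tested on simulated data. Some genes that the rule takes are not reported here.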

Additional observations from a re-analysis of the deposited data

How the results depend on the processing

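Of the values recomputed for counts and shares 39 moved little and 11 moved. For single genes 1816 moved little, 217 moved and 15 reversed, and for list medians 363, 72 and 13. The ratio of member shares lay between 1.20 and 1.48, apart from 2.57 without members with 3 or more Ly6c2 UMIs, where 269 of 2646 genes (10.2%) were at least 1.5-fold higher in TB members. Thinned to 1000 UMIs, 591 of 2646 genes were higher (22.3%) and 568 lower (21.5%). With the same subcluster weights 101 of 2646 were lower (3.82%). With a minimum of 50 UMIs 293 of 4450 genes were higher (6.58%) and 294 lower (6.61%). With 200 UMIs 35 of 1334 genes were higher (2.62%) and 75 lower (5.62%). Over every gene that had a UMI in both libraries, 1774 of 10448 were higher (17.0%) and 1449 lower (13.9%). Fewer UMIs per gene give wider counting error. The cause was not tested for the other changes.

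With 2 or more Cd209a UMIs the ratios of Osm and Bcl2a1b were 1.80 and 1.14, and the median log2 ratios of the cDC1 and cytokine lists -0.12 and 0.60. Without members with 3 or more Ly6c2 UMIs the ratios were 0.94 for Gzma, 1.13 for Ifi44, 3.50 for Osm and 1.87 for Bcl2a1b, and the same medians -0.18 and 0.93. Without the 10% of members with the most UMIs Gzma was at 0.072 and Gzmb at 0.29, the cDC1 median at -0.21 and the NK cell median at -3.14. Thinned, Gzma was at 0.98, Cd209d at 0.94, Gzmb at 0.52 and Hmgcs1 at 3.14, with medians of -0.13 for cDC1, -0.93 for NK cell, -0.10 for transcription factor, 0.12 for pattern recognition and 0.31 for cytokine genes. Thinned ratios of genes at low levels rest on few UMIs, so a turn there can be counting error. With the same subcluster weights the costimulation median was 0.19. Without the subcluster led by NK genes, an alternative chosen after seeing the data, Gzma was at 0.11, Gzmb at 0.26 and Ccl5 at 1.00, and the NK cell median at -2.49. No paired analysis was possible because each group holds 1 library.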
